A study of Homo sapiens with 3 samples.

Results

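The transcripts of 10 chaperone genes were followed through RBM17 eCLIP in K562 cells, namely those of HSP90AA1, HSP90AB1, HSPA8, HSPH1, DNAJB1, DNAJA1, CACYBP, STIP1, CHORDC1 and HSPD1. They are 10 of the 10872 Ensembl genes to which a replicate 2 cluster was assigned. They were chosen by their large replicate 1 signal over the input. The size of that signal, and other values made from its folds, are therefore given as a description and without a test. K562 is an established cell line from a chronic myelogenous leukemia, and RBM17 is a splicing factor that takes part in the recognition of the 3’ splice site. In eCLIP, proteins are fixed to bound RNA by ultraviolet light, and the RNA recovered with an antibody is compared with a size-matched input taken before the washes. The untreated K562 cells were irradiated with 400 mJ per square centimeter at 254 nm, and each of the RBM17 eCLIP replicates was 1 library made with 10 μg of RBM17 antibody, with 1 input of 2% of a sample from the same gel range of 50 to 125 kDa. The labels do not say whether the replicates came from separate cultures.

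Chaperones bind proteins that are not yet folded or have lost their fold. HSPA8 is the constitutive cytosolic HSP70, DNAJA1 and DNAJB1 are HSP40 proteins that deliver clients and stimulate its ATPase, and HSPH1 is an HSP110 nucleotide exchange factor. HSP90AA1 and HSP90AB1 encode the inducible and the constitutive cytosolic HSP90, STIP1 links HSP70 to HSP90, CHORDC1 is an HSP90 co-chaperone, and CACYBP is a calcyclin-binding protein with a CS domain of the kind found in HSP90 co-chaperones. HSPD1 is the mitochondrial HSP60 chaperonin. Many of these genes are targets of the heat shock factor HSF1, which binds repeats of the letters GAA in alternating orientation.

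The positions of the clusters are in hg19, judged from their range, and the genome used here is GRCh38, so no sequence was read from the clusters themselves. The promoters are shown because the 10 genes were grouped for a shared signal and many are heat shock genes. Promoters here are the 250 bases before and 50 after a RefSeq gene start in GRCh38.p14, and all 10 genes had 1 or more, 18 in all. The letters GAANNTTC, which read the same on both strands, occurred in 8 of the 18 promoters and in 6.77% of all 35116 promoters, or by gene in 7 of the 10 and in 8.21% of all 27305 genes with a promoter. A run of 3 units, GAANNTTCNNGAA or TTCNNGAANNTTC, which contains the shorter motif and is the other’s reverse complement, occurred in 6 of the 18 promoters and in 0.490% of all promoters, or by gene in 6 of the 10 and in 0.608%. The 30 bases around a match are given 5’ to 3’ on the strand of the gene, with the motif in capitals. The shorter motif is shown for DNAJB1 and the run of 3 units for the others.
HSP90AA1 (chr14:102087111-102087140, - strand): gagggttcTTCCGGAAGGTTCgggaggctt
HSP90AB1 (chr6:44247823-44247852, + strand): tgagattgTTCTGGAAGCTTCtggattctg
HSPA8 (chr11:123062170-123062199, - strand): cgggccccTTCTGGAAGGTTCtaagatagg
CHORDC1 (chr11:90223088-90223117, - strand): cgcgaccgGAAAATTCGCGAAggttcctga
HSPD1 (chr2:197500061-197500090, - strand): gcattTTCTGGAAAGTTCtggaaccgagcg
DNAJB1 (chr19:14518456-14518485, - strand): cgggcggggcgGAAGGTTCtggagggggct
These matches begin 88 bases before the gene start in HSP90AA1, 112 in HSP90AB1, 55 in HSPA8, 60 in CHORDC1, 245 in HSPD1 and 77 in DNAJB1. DNAJA1 had a run of 3 units that begins 3 bases after its start, and no match was found in the windows of HSPH1, CACYBP and STIP1. A match is a description of these letters.

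Replicate 1 was deposited as 137095 clusters scored against the input by a −log10 p and a log2 fold, and replicate 2 as 119066 clusters with a number of reads and a p of the peak caller that is not relative to the input. Of these 119066, counted by gene, 4218 repeat the interval of another gene. Shares over all genes therefore count some intervals more than once. The depth of replicate 1 is unknown. The reads per cluster of replicate 2 had a median of 5, and the lowest was 3. The authors also deposited 866 reproducible peaks, each with 1 log2 fold for both replicates together. Because the replicates carry different quantities, their levels were not compared directly, and the main comparison below is of positions. Where genes or bins are ranked by replicate 1 fold and by replicate 2 reads, the ranks are of unlike quantities. A difference between such ranks is not a measured difference between the replicates. For each gene, the span is the stretch from its first to its last replicate 2 cluster, and replicate 1 clusters and peaks that overlap it by at least 1 bp on the same strand belong to the gene.

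The spans lie in hg19 at chr14:102547747-102553357 for HSP90AA1, chr11:122928783-122932801 for HSPA8, chr13:31712923-31735940 for HSPH1 and chr19:14626641-14629198 for DNAJB1, all on the - strand. CHORDC1 (chr11:89936020-89956209) and HSPD1 (chr2:198351499-198364543) are on the - strand too. HSP90AB1 (chr6:44217116-44221479), DNAJA1 (chr9:33026509-33038784), CACYBP (chr1:174969201-174979203) and STIP1 (chr11:63953672-63971763) are on the + strand. The spans measured 2558 bases in DNAJB1, the shortest, and 23018 in HSPH1, the longest. In GENCODE v44 the canonical transcripts of these 10 genes have 3 exons in DNAJB1 to 18 in HSPH1.

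In the spans of the 10 genes lay 485 replicate 1 clusters and 119 replicate 2 clusters. Of the 485, 370 reached 3 both in log2 fold and in −log10 p, called passing below, which is 76.3% (exact Clopper-Pearson 95% interval 72.2 to 80.0%, counting error only). The interval takes clusters as independent, though many abut. Over all replicate 1 clusters the share passing was 5.35%. Although the 10 genes held 0.354% of the replicate 1 clusters, they held 59 of the 133 clusters at the −log10 p limit of 400 and 116 of the 133 clusters that reached a log2 fold of 8. All 10 genes had more replicate 1 than replicate 2 clusters, against 31.6% of all genes. The ratio of the cluster numbers ranged from 1.28 in HSPD1 to 7.17 in DNAJB1, with a median of 0.778 over all genes. Many replicate 1 clusters abut, and with such clusters merged into blocks the order of the genes changed. The ratio of blocks was then lowest in HSP90AB1 at 1.21 and highest in HSPH1 at 6.86, while that of DNAJB1 was 3, that of HSP90AA1 2.5 and that of HSPA8 2.75. The low place of HSP90AB1 holds for its span only, which leaves out 48 replicate 1 clusters within 2000 bases upstream. All 10 genes still had more replicate 1 than replicate 2 blocks, against 31.2% of all genes.

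The members did not form 1 level in replicate 1. Ranked by median log2 fold among the 5626 genes with at least 5 replicate 1 clusters, HSP90AA1, HSPA8, DNAJB1 and HSP90AB1 held ranks 1 to 4. HSPH1 was at rank 9, CACYBP at 13, STIP1 at 28 and CHORDC1 at 97. DNAJA1 stood at rank 339 and HSPD1 at 1239. The median log2 fold was at least 3 in 8 of the 10 genes and in 2.38% of the ranked genes. DNAJA1 and HSPD1, at 2.51 and 1.77, lay nearer to the median of 1.41 over ranked genes than the other 8 did.

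**Figure D1:**
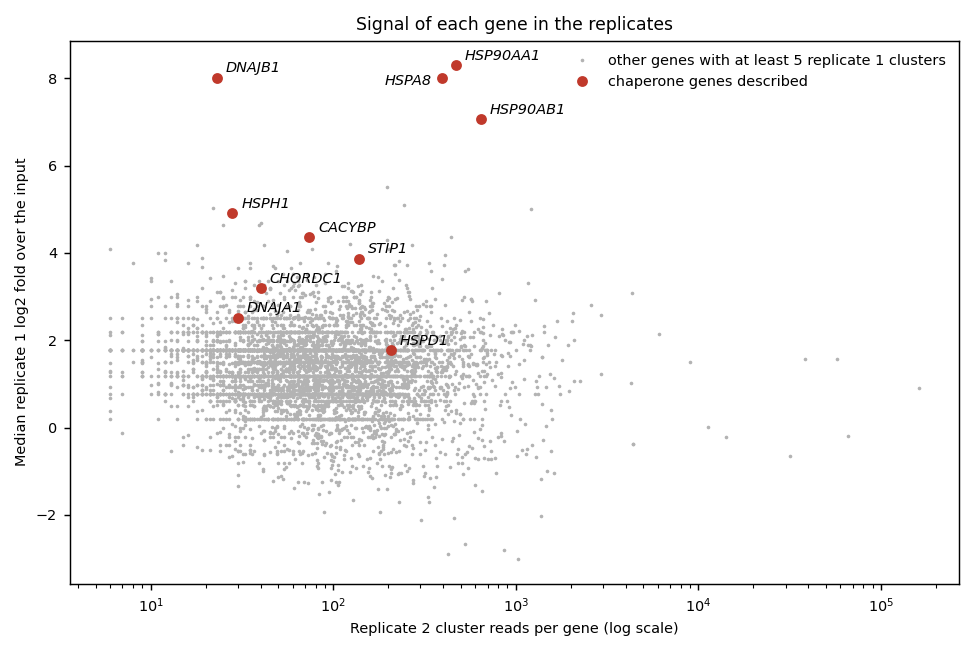
Median replicate 1 log2 fold over the input (y) against replicate 2 cluster reads (x, log scale) for genes with at least 5 replicate 1 clusters; each point is 1 gene. HSP90AA1, HSPA8, DNAJB1 and HSP90AB1 stand above all other genes, with DNAJB1 at 23 reads and HSP90AB1 at 642, while HSPD1 lies within the cloud.

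The reads of replicate 2 put the same genes in another order. HSP90AB1 led with 642 reads (exact Poisson 95% interval 593 to 694, counting error only), at the 98.3 percentile of genes. HSP90AA1 with 470 reads (428 to 514) and HSPA8 with 396 (358 to 437) stood at the 97.2 and 96.3 percentiles. The intervals of these 3 genes do not all overlap: that of HSP90AB1 lies above the others, and those of HSP90AA1 and HSPA8 overlap. HSPD1 held 206 reads, STIP1 139, CACYBP 74 and CHORDC1 40. The lowest were DNAJA1 with 30 reads (20.2 to 42.8), HSPH1 with 28 (18.6 to 40.5) and DNAJB1 with 23 (14.6 to 34.5), whose intervals overlap one another and that of CHORDC1. The median gene held 33 reads, so DNAJB1, at rank 3 by fold in replicate 1, was at the 40.7 percentile in replicate 2. These reads are not corrected for the abundance or length of the RNA. At a p of at most 1e-10, replicate 2 had 15 clusters in HSP90AA1, 15 in HSP90AB1 and 5 in HSPA8. CACYBP had 1 such cluster, STIP1 and HSPD1 had 2 each, and none was present in HSPH1, DNAJB1, DNAJA1 or CHORDC1.

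A reproducible peak was present in 1 of the 10 genes, HSP90AA1, against 4.07% of all genes with a replicate 2 cluster. The other 9 genes had no peak although 278 of their replicate 1 clusters passed. The 6 peaks of HSP90AA1 form 2 runs on the - strand of chromosome 14. The first run begins 418 bases from the 5’ end of the span and holds the peaks at chr14:102552922-102552939, chr14:102552907-102552921 and chr14:102552899-102552906. Their log2 folds over both replicates were 6.30, 6.18 and 6.33, and those of the replicate 1 clusters at the same intervals were 9.51, 9.38 and 9.39. All 3 overlapped 1 replicate 2 cluster of 17 reads. The second run begins 1319 bases from that end and holds chr14:102552027-102552038, chr14:102552019-102552026 and chr14:102552000-102552018, with log2 folds of 6.26, 6.43 and 6.58. In replicate 1 the second run had log2 folds of 9.78, 9.96 and 10.09, and all 3 of its peaks overlapped 1 replicate 2 cluster of 19 reads. The 6 peaks were thus 8 to 19 bases long, rested on 2 replicate 2 clusters, and lay 3.06 to 3.53 below their replicate 1 value on the log2 scale. Their −log10 p was 3.49 to 4.07, while each of the 6 replicate 1 clusters was at the limit of 400.

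The peaks did not sit where replicate 2 had most of its reads in HSP90AA1. Its 17 replicate 2 clusters held 9 to 85 reads, and the highest, with 85 reads, began 2139 bases from the 5’ end of the span. The replicate 1 log2 fold there was at most 3.06, close to the lowest value of the gene, 2.91. The highest replicate 1 log2 fold of the gene, which was also the highest of all 137095 clusters, was 10.70 at chr14:102553231-102553242, 115 bases into the span, where replicate 2 had no cluster. The replicate 1 clusters of HSP90AA1 covered 2285 bases of the 5611-base span in 40 separate blocks, and 54 of the 93 reached a log2 fold of 8.

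**Figure D2:**
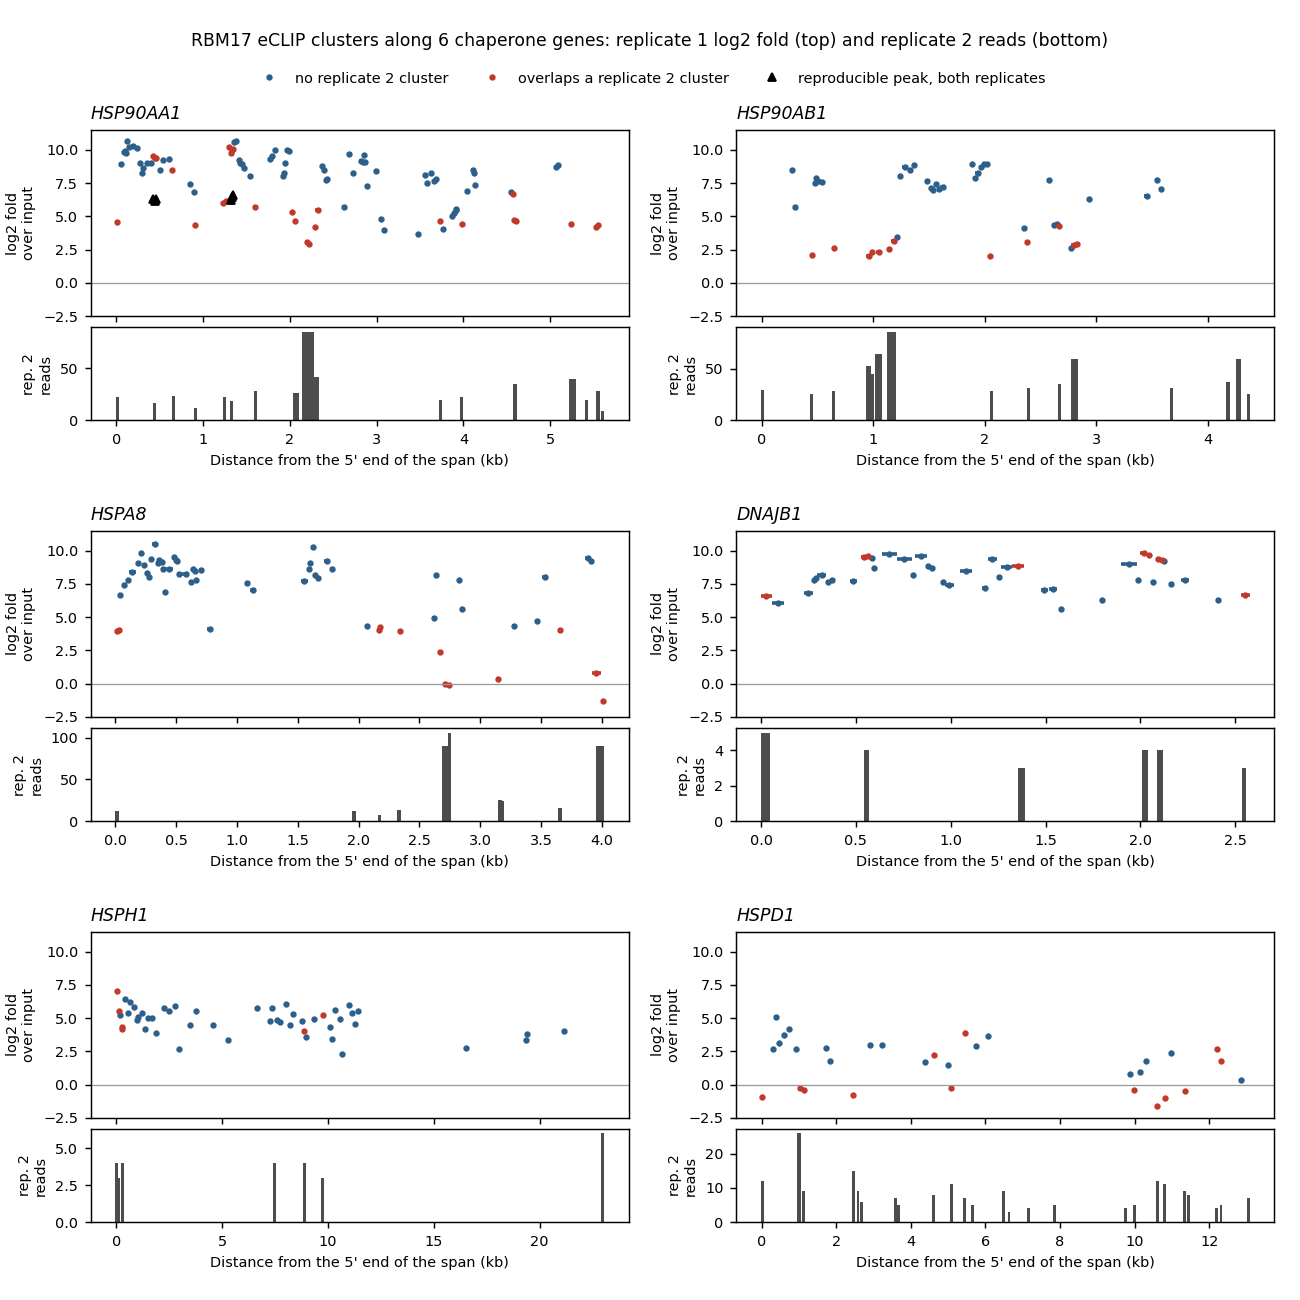
Clusters along 6 genes, 5’ to 3’, by distance from the 5’ end of the span in kb: replicate 1 log2 fold over the input above, colored by overlap with a replicate 2 cluster, and replicate 2 reads per cluster below; triangles are reproducible peaks. In HSP90AB1, HSPA8 and HSPD1 the clusters that overlap replicate 2 lie mostly below the others, and in DNAJB1 they do not.

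The replicates overlapped in position for most replicate 2 clusters and for few replicate 1 clusters. Of the 119 replicate 2 clusters in the 10 genes, 77 overlapped a replicate 1 cluster (64.7%, exact Clopper-Pearson 95% interval 55.4 to 73.2%), against 31.9% over all genes. In single genes this share ran from 3 of 9 in CHORDC1 to 6 of 6 in DNAJB1 and 15 of 17 in HSP90AA1. Of the 485 replicate 1 clusters, 100 overlapped a replicate 2 cluster (20.6%, interval 17.1 to 24.5%), against 30.2% in the spans of all genes. Replicate 1 clusters were also denser in these genes, with 4.08 for each replicate 2 cluster, and the part of this density in the higher share was not tested. Both intervals cover counting error only and take clusters as independent, though many replicate 1 clusters abut.

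Within a gene, replicate 1 clusters on the replicate 2 clusters tended to have lower folds than those off them. The median log2 fold over the 10 genes was 4.05 for the 100 clusters on replicate 2 clusters and 5.23 for the 385 off them. The median off exceeded the median on in 9 of the 10 genes, against 55.1% of the 3717 genes with at least 3 clusters of each kind. It did so by at least 1 in 6 of the 10, against 15.7%. The median difference was 2.05 over the 10 genes and 0.129 over all 3717. The exception was DNAJB1, with a median of 9.39 on and 7.81 off the replicate 2 clusters. With only replicate 1 clusters of −log10 p at least 3, the direction held in 5 of the 8 genes that still had 3 clusters of each kind, and the differences of CACYBP and STIP1 became -0.076 and -0.047. These differences are made from the folds by which the 10 genes were chosen. A gene with high folds has more room for a difference of 1 or more, and the 3717 genes were not matched for fold. Clusters of 1 library in 1 gene are not replicates, so no test was made.

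The separation was widest in HSPA8 and HSP90AB1. In HSP90AB1, the 12 clusters on replicate 2 clusters had log2 folds of 1.99 to 4.27, and 29 of the 32 off them lay above that range, up to 8.96 at chr6:44219095-44219126. The medians were 2.58 and 7.64. In HSPA8, the 12 clusters on replicate 2 clusters had log2 folds of -1.28 to 4.26, and 47 of the 48 others lay above them, up to 10.51 at chr11:122932460-122932497. Its medians were 3.18 and 8.36. In HSP90AA1 the medians were 5.30 on and 8.65 off, but the ranges overlapped widely, 2.91 to 10.24 against 3.70 to 10.70, and the high values on replicate 2 clusters included those at the 6 peaks. These 3 differences kept their direction with only replicate 2 clusters of p at most 1e-10, at 5.05, 8.06 and 3.25. In HSP90AB1 all 15 replicate 2 clusters meet that limit, so its value could not change. In HSPA8 only 5 clusters meet it, among them those of 106, 90 and 90 reads. These overlap clusters named for small nucleolar RNAs, which are described next.

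HSPA8 is a host gene of U14 small nucleolar RNAs, which are cut from its introns. Within its span replicate 2 also had a cluster of 31 reads named for SNORD14C and a cluster of 25 reads named for SNORD14E. The SNORD14C cluster overlapped 2 HSPA8 clusters of replicate 2 that held 196 of the 396 HSPA8 reads together, and the 2 replicate 1 clusters under SNORD14C had log2 folds of -0.01 and -0.13. The SNORD14E cluster overlapped an HSPA8 cluster of 90 reads, with a replicate 1 log2 fold of 0.79. Reads at these places cannot be assigned to the host or the small nucleolar RNA. Without the 3 replicate 1 clusters that touch another gene, the median log2 fold of HSPA8 was 8.19 rather than 8.02. All 3 lie on replicate 2 clusters of HSPA8 and lower its median there. The same HSPA8 clusters of replicate 2 also overlap replicate 1 clusters of log2 fold 2.42 and -1.28, which the small nucleolar RNA clusters do not touch. The difference between HSPA8 clusters off and on replicate 2 clusters was not recomputed without any of these clusters.

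**Figure D3:**
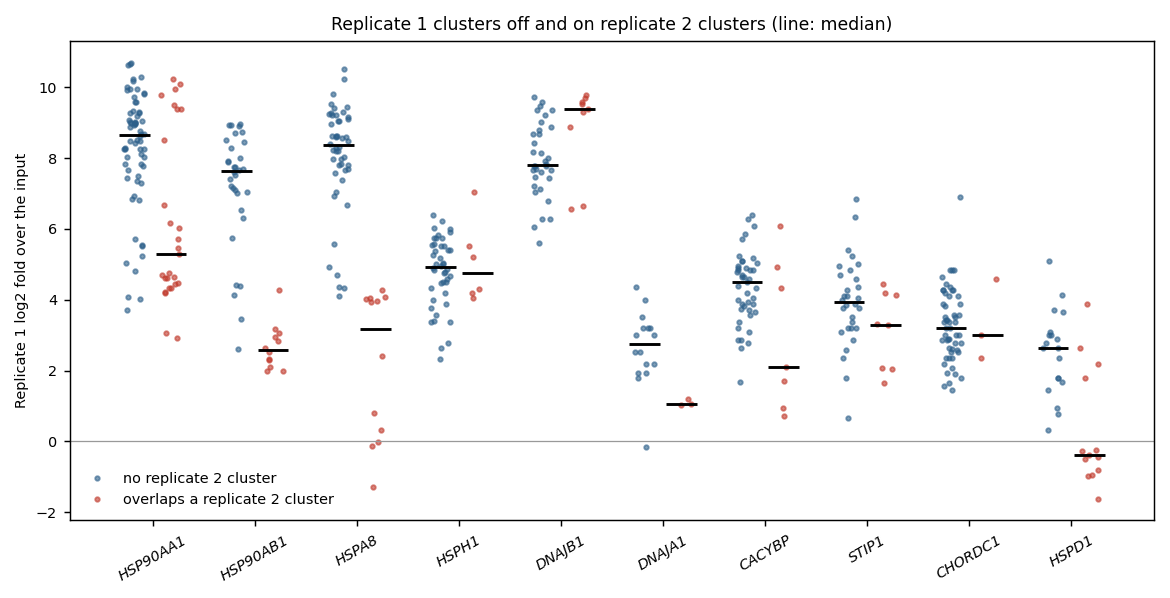
Log2 fold over the input of each replicate 1 cluster (points) in the 10 genes, split by overlap with a replicate 2 cluster of the gene; black lines are medians. The medians differ by 5.05 in HSP90AB1 and 5.19 in HSPA8, and DNAJB1 is the gene with the higher median on the replicate 2 clusters. In HSPA8 the clusters on replicate 2 include some at small nucleolar RNAs.

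DNAJB1 was high along its whole span in replicate 1 and sparse in replicate 2. All 43 of its replicate 1 clusters passed, with log2 folds of 5.62 to 9.80. The 6 replicate 2 clusters held 3 to 5 reads each, with p of 0.00201 to 0.0364 from the peak caller. They overlapped 9 replicate 1 clusters, among them the highest of the gene at chr19:14627163-14627202, where the −log10 p was 256. Every replicate 2 cluster of DNAJB1 lay on a replicate 1 cluster of log2 fold 6.57 or more. Replicate 1 clusters covered 1477 of the 2558 bases of this span, and the part of that coverage in the overlap was not tested.

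HSPH1 showed a similar contrast over a longer span. Of its 50 replicate 1 clusters 46 passed, and the log2 folds were 2.33 to 7.05. Its 7 replicate 2 clusters held 3 to 6 reads each. The highest replicate 1 fold was at the 5’ end, at chr13:31735878-31735941, on a replicate 2 cluster of 4 reads. The medians on and off replicate 2 clusters were 4.76 and 4.92, a difference far smaller than the range of the clusters.

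CACYBP had 41 passing clusters of 50, STIP1 28 of 38 and CHORDC1 25 of 56. The highest log2 folds were 6.40 in CACYBP, 6.85 in STIP1 and 6.90 in CHORDC1. CACYBP had 9 replicate 2 clusters, the largest with 19 reads at the 5’ end of the span, where the replicate 1 log2 fold was 1.71. In STIP1, 9 of the 16 replicate 2 clusters, with 94 of its 139 reads, had no replicate 1 cluster. CHORDC1 had the lowest share of replicate 2 clusters on replicate 1 clusters, since 6 of its 9 replicate 2 clusters had no replicate 1 cluster and 53 of its 56 replicate 1 clusters lay off replicate 2.

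DNAJA1 and HSPD1 were the members with a modest signal. In DNAJA1, 2 of 19 replicate 1 clusters passed, and the highest log2 fold was 4.36. Its 3 clusters on replicate 2 had log2 folds of 1.01 to 1.19, and 15 of the 16 others were above them. In HSPD1, 5 of 32 clusters passed and 9 had a log2 fold below 0. All but 4 of the 13 HSPD1 clusters on replicate 2 were those below 0, with a median of -0.40, whereas the 19 others were all above 0, with a median of 2.65. HSPD1 had the most replicate 2 clusters of the 10 genes, 25, of which 12 had no replicate 1 cluster.

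The high folds of replicate 1 lay toward the 5’ part of several spans. The highest log2 fold lay within the first 10% of the span in 6 of the 10 genes, against 24.0% of the genes with at least 5 replicate 1 clusters. They were HSP90AA1, HSPA8, HSPH1, STIP1, CHORDC1 and HSPD1. The median position of passing clusters was nearer to the 5’ end than that of the replicate 2 reads in 8 of the 9 genes with at least 3 passing clusters, against 59.7% of all such genes. In HSPA8 these positions were 16.4% and 68.4% of the span, and in HSPD1 4.66% and 38.9%. The 68.4% of HSPA8 falls in a replicate 2 cluster of 106 reads that overlaps the SNORD14C cluster. Its reads cannot be assigned to HSPA8 or to the small nucleolar RNA. DNAJA1, with 2 passing clusters, was not among the 9 genes and went the other way, at 46.7% and 32.2%. Of the 9, HSP90AB1 was the exception, at 36.8% and 26.7%. However, the span of HSP90AB1 leaves out a further 48 replicate 1 clusters within 2000 bases upstream, with log2 folds of 3.02 to 9.76. In none of the other genes did more than 5 replicate 1 clusters lie within 2000 bases of the span. HSP90AB1 also had no replicate 1 cluster past 81.9% of its span, where replicate 2 had 4 clusters. Exons and introns were not assigned, as the annotation used is in another build.

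In bins of 100 bases, with bins without a replicate 1 cluster set to a log2 fold of 0, the rank correlation of replicate 2 reads with the highest replicate 1 fold was below 0 in 9 of the 10 genes. Spearman’s rho ranged from -0.69 over 52 bins in HSPD1 to 0.17 over 25 bins in DNAJB1. Bins that hold a cluster in 1 replicate only push this value down by construction. Over bins with a cluster in both replicates, rho was below 0 in 6 of the 9 genes with at least 6 such bins, with a median of -0.15, and was -0.56 in HSP90AB1.

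Other genes of the chaperone system were examined by 5 lists of 78 further genes, of which 68 had a replicate 2 cluster and 52 at least 5 replicate 1 clusters. The median log2 fold over these 52 was 1.38, beside 1.41 over all ranked genes, and it was at least 3 in 5 of them, against 2.38% of all ranked genes. Among HSP90 co-chaperones and paralogs, UNC45A, a myosin chaperone, had a median of 3.13 and FKBP4, an HSP90-binding immunophilin, 2.51, with a list median of 1.84. Among HSP70 and HSP40 genes, DNAJB6, a suppressor of aggregation, reached 2.997 and BAG1, an HSP70 nucleotide exchange factor, 2.77, with a list median of 1.55. HSPA9, the mitochondrial HSP70, had a median of 1.77, equal to that of HSPD1, and 1 reproducible peak. No replicate 2 cluster was named for HSPA1A or HSPA1B, the inducible HSP70 genes, so their spans could not be set.

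Chaperonins were unequal. TCP1, a subunit of the cytosolic chaperonin, had a median log2 fold of 5.11 over 29 clusters, 245 replicate 2 reads and 5 reproducible peaks. HSPE1, the mitochondrial co-chaperonin of HSPD1, had a median of 4.65 over 13 clusters, no peak, and a span shared with the readthrough gene HSPE1-MOB4. The list median was 1.21, and of the other chaperonin and prefoldin genes CCT5 had 2 peaks and PFDN5 had 1. Among chaperones of the endoplasmic reticulum, with a list median of 1.22, the highest were CALR at 2.98, with 2 peaks, and HSP90B1 at 1.84, with none. HSPA5, the HSP70 of this compartment, had a median of 1.66 and 4 peaks, and the protein disulfide isomerase P4HB had 1 peak. None of the 11 measured genes of that list reached a median of 3.

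The last list, of small heat shock proteins, heat shock factors and ubiquitin, held 4 measured genes, with a median of 3.43. The polyubiquitin gene UBB had a median of 5.50 and SERPINH1, a collagen chaperone, 4.05, and both lacked a peak. UBB had 6 clusters off replicate 2 clusters with a median of 6.31 and 4 on them with a median of 1.01, and in SERPINH1 the medians were 4.07 over 16 and 2.51 over 4. Over the lists, 7 of the 68 genes with a replicate 2 cluster had a peak, against 4.07% of all genes, 16 peaks in all, and 6 of the 7 had a median log2 fold under 3 in replicate 1.

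**Figure D4:**
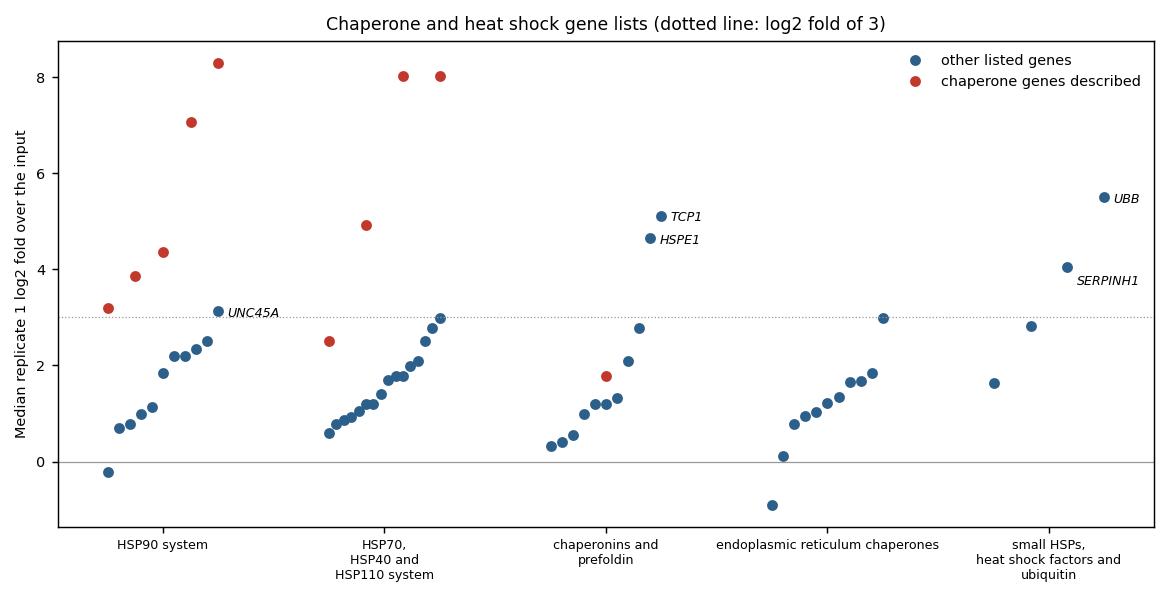
Median replicate 1 log2 fold over the input of each gene with at least 5 replicate 1 clusters, by list; the 10 genes are marked in a second color. Outside them, UNC45A, TCP1, HSPE1, UBB and SERPINH1 exceed a log2 fold of 3, and no endoplasmic reticulum chaperone does.

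Genes of similar pattern were sought by the distance to the median of the 10 genes in 2 quantities, the median replicate 1 log2 fold (4.64) and the ratio of cluster numbers (5.51), each scaled by its interquartile range. Over 1358 other genes with at least 20 clusters in each replicate, the nearest were ABHD5, DNAJB6, GPCPD1, DDX3X and GOLGA2, at distances of 2.59 to 2.74. Their median log2 folds were 2.71 to 4.19 and their ratios 1.62 to 2.94, all below the medians of the 10 genes. Only HSPD1 of the 10 genes has 20 clusters in each replicate itself. With at least 5 clusters in each, which all 10 have, 5275 other genes were compared and the nearest were RENBP, TCP1, HSPE1, OAZ1 and HBP1, at distances of 1.10 to 1.46. Their median log2 folds were 3.19 to 5.11 and their ratios 2.5 to 5.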

How the data were processed

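RBM17 eCLIP was performed in K562 cells in 2 replicates with 1 size-matched input, and the authors processed the reads with a published eCLIP pipeline (the submitters’ notes name cutadapt and STAR). The replicate numbers are those of the sample descriptions, since the titles use 2 and 3. For replicate 1, each cluster was deposited with the −log10 p (at most 400) and log2 fold against the input that the authors computed. For replicate 2, the authors deposited the p-value of the peak caller and a name with the gene and the number of reads, which was used as a count of reads. The reproducible peaks carry 1 pooled −log10 p and 1 pooled log2 fold, as the authors deposited them. No build was given in the sources used here. Positions reach 249211903 on chromosome 1, past its length of 248956422 in hg38, and were taken as hg19.

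Symbols were matched to Ensembl genes by a table of gene names, and all 10 members matched with the same identifier as in GENCODE v44. Overlaps, medians and intervals were computed with scipy 1.17.1, numpy 2.4.6 and pandas 2.3.3 under Python 3.11.15, and plotted by matplotlib 3.10.9. The overlap functions were tested on simulated data. A cluster passed when its log2 fold and its −log10 p both reached 3. All 10 members were named, with the other listed genes that have a peak, the 2 with the highest median fold in each list and the 5 genes of most similar pattern. HSPA1A, HSPA1B, SNORD14C, SNORD14E, RENBP, OAZ1 and HBP1 were named after their values were seen. A gene of the lists is not reported here and was left out of their counts. The members and lists were chosen with earlier results of these data known. No test was made, since each replicate is 1 library and the members were chosen from these values. Alternatives covered the assignment to genes, thresholds, overlap and bin width.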

Additional observations from a re-analysis of the deposited data

How the results depend on the processing

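Results were recomputed with other rules for assignment, overlap, thresholds and bins. Of 32 alternative values of the results above, 21 stayed close to the value given and 11 moved. None of these turned its direction, but single members did. With replicate 1 clusters of −log10 p at least 3, the difference off minus on replicate 2 clusters became -0.076 in CACYBP and -0.047 in STIP1, from 2.42 and 0.65. Over bins with a cluster in both replicates, the profile correlation became 0.14 in STIP1 and 0.45 in CHORDC1, from -0.50 and -0.26. With −log10 p at least 5, 0 members kept a reproducible peak, and the share of all genes that keep one at this limit was not computed. The share of replicate 2 clusters that overlap replicate 1 was 80% for clusters of p at most 1e-10 and 76.4% for those with at least 10 reads. The share of replicate 1 clusters that overlap replicate 2 was 15.7% with an overlap of at least 50% and 16.2% for passing clusters. These overlap shares were not recomputed over all genes at the same settings. The median profile correlation was -0.55 with bins of 50 bases, -0.26 with 200 bases and -0.15 with a cluster in both replicates. The ratio of cluster numbers was 4.08 over the members, 2.94 with abutting clusters merged and 8.82 with replicate 2 clusters of at least 10 reads, which removes clusters from 1 replicate alone. The members with a higher fold off replicate 2 clusters were 3 of 3 with replicate 2 clusters of p at most 1e-10 and 5 of 8 with replicate 1 clusters of −log10 p at least 3. All alternatives of this last count, an extension of the span by 2000 bases and the lower minimum of 5 clusters for genes of similar pattern were chosen after seeing the data. For single members, the median log2 fold with −log10 p at least 3 was 4.18 in DNAJA1, 3.89 in CHORDC1 and 3.89 in HSPD1, against 2.51, 3.19 and 1.77. This limit removes mainly clusters of low log2 fold, so it raises the median by construction and does not give another level for these genes. Weighting by cluster length gave 2.65 in HSPD1. The causes of the other changes were not tested. No result could be recomputed without replicate 1 or replicate 2, since the spans come from replicate 2 and the folds from replicate 1. No paired analysis was possible because there is only 1 eCLIP group. The unknown depth of replicate 1 and the 3 to 5 reads of many replicate 2 clusters limit what an absent cluster shows.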
